A study of Mus musculus with 24 samples.

Results

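Clock output genes are genes that the circadian clock of the liver switches on and off over the day without being part of its central feedback loop. The group described here has 9 genes, Dbp, Tef, Hlf, Nfil3, Ciart, Usp2, Bhlhe40, Bhlhe41 and Wee1, chosen by symbol with earlier results of these data known. Each of the 9 symbols had an entry in the counts of every library, though an entry of Dbp was 0. All passed the filter on low counts, so that they make up 9 of the 13204 genes tested and of the 50657 gene symbols counted.

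The study asked how the loss of the epidermal growth factor receptor (EGFR) in hepatocytes affects liver injury by acetaminophen (APAP), an analgesic that is toxic to hepatocytes in overdose. Livers came from wild-type (WT) mice and from mice with a hepatocyte-specific EGFR knockout (KO), given 500 mg/kg APAP and collected at 0, 1, 3 or 12 h, with 3 individual mice in each of the 8 groups and 24 libraries in all. Polyadenylated RNA was extracted with TRIzol and sequenced on an AVITI instrument. Livers at 6 h and 24 h were not analysed here. The labels state neither how the KO was made nor the strain, sex, age or feeding of the mice, nor the clock hour of dosing and collection, nor what the 0 h mice received. No undosed mice collected at 1, 3 or 12 h were used, so time since dosing, time of day and handling cannot be told apart in any change over time. The change at 1, 3 and 12 h is measured against the same 3 mice at 0 h within a genotype, so the responses of a genotype share their reference.

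The liver clock rests on the factors BMAL1 and CLOCK, which bind E-box sequences (CACGTG) in target promoters, and on the PER and CRY proteins, which repress them. Outputs carry that rhythm to other genes. Dbp, Tef and Hlf encode the PAR bZIP activators, which bind D-box sequences, and Nfil3 encodes a repressor that binds the same sequences. Ciart, Bhlhe40 and Bhlhe41 encode repressors that act on E-box targets, Usp2 encodes a deubiquitinase that is strongly rhythmic in liver, and Wee1 encodes a kinase that restrains entry into mitosis by phosphorylating CDK1.

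The promoters of 7 of the 9 genes were in the RefSeq promoter table for mouse build GRCm38.p6, in 8 windows of 300 bases around a start site, because Tef had 2. Bhlhe40 and Wee1 were not in the table. The windows below are shown because they hold the E-boxes found, and that of Dbp because Dbp fell at 1 h and 12 h in both genotypes while its window holds no E-box. Dbp is not alone in this. Usp2 fell at 1, 3 and 12 h and Hlf at 3 h and 12 h in both genotypes, and their windows, not shown, hold no E-box either. E-boxes are in capitals and each sequence runs 5′ to 3′ on the strand of its gene.
Ciart, chr3:95882179-95882478, minus strand: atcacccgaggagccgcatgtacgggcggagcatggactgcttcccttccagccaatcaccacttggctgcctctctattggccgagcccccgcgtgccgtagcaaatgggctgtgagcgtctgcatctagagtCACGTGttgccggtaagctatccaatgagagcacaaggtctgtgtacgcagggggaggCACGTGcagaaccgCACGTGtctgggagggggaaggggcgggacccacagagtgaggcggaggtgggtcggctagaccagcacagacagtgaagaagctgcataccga
Tef, chr15:81802423-81802722, plus strand: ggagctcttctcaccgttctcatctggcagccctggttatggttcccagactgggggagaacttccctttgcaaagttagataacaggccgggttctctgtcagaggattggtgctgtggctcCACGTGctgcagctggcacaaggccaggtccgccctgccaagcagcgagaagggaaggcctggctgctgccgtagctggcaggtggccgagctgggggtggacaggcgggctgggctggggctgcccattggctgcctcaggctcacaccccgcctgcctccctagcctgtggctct
Tef, chr15:81811164-81811463, plus strand: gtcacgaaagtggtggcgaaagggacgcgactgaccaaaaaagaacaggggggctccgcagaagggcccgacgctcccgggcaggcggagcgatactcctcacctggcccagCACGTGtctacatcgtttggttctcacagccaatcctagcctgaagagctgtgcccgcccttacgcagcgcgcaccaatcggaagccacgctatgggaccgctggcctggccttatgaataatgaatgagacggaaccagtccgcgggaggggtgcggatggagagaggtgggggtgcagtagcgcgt
Bhlhe41, chr6:145865371-145865670, minus strand: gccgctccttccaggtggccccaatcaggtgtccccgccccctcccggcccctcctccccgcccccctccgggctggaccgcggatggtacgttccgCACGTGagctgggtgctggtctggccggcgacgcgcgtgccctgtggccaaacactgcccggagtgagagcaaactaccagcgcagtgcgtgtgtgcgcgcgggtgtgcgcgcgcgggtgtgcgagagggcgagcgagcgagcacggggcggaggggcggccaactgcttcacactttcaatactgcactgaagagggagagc
Dbp, chr7:45704997-45705296, plus strand: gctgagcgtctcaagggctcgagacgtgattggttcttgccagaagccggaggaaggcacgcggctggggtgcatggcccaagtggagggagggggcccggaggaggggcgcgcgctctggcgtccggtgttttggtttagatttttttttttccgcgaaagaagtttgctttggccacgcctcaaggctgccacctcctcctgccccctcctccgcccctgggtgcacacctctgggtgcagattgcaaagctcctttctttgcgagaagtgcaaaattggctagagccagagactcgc

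The Ciart window held CACGTG at 3 places, beginning 116, 58 and 44 bases before the start site. Of all 32851 windows in the table, 7.15% held CACGTG and 0.0883% held it at 3 or more places. The Tef windows each held it at 1 place, 127 bases before the start in the first listed and 138 bases before it in the other. The Bhlhe41 window held it at 1 place, 153 bases before the start. The windows of Dbp (chromosome 7), Usp2 (chromosome 9), Hlf (chromosome 11) and Nfil3 (chromosome 13) did not hold these letters. The D-box spellings TTATGTAA and TTACGTAA were in none of the 8 windows, against 0.938% and 0.119% of all windows. The cyclic AMP element TGACGTCA was in the Hlf window alone among the 8, beginning 9 bases before the start, against 1.79% of all windows. Motifs were sought on both strands, and none of those found overlapped another. A missing match says only that these letters are not in that window.

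The libraries held 3.54 M to 7.58 M counts on genes (median 5.93 M), so that 1 count was worth 0.124 to 0.349 CPM (counts-per-million reads on genes). Levels are CPM scaled by the trimmed mean of M-values (TMM), and they compare groups within a gene, not genes with each other. Egfr checked the genotype labels: its group means were 223 to 464 CPM in WT and 75.4 to 209 CPM in KO livers, and the library labelled KO 1 h replicate 1 reached 335 CPM, above the lowest WT 1 h library at 332 CPM. At 0, 3 and 12 h every KO library was below every WT library of its time. Across times, KO 3 h replicate 3 at 270.9 CPM was above all WT 12 h libraries, at 202.6 to 262.5 CPM. The 6 hepatocyte markers were found in every group and summed to 30500 to 49900 CPM. The 6 libraries of the 12 h livers stood apart from the other 18: mitochondrial ribosomal RNA took 44.8% to 50.4% of their counts on genes against 39.6% to 43.2%, their TMM factors were 0.814 to 0.971 against 1 to 1.14, and they held 3.54 M to 4.74 M counts against 4.43 M to 7.58 M. Under library size alone in place of TMM, the median of all genes moved by -0.355 (WT) and -0.254 (KO) log2 at 12 h against 0 h, and by -0.267 and -0.246 at 12 h against 3 h. The share of called genes that were higher then fell from 52.4% to 17.6% (WT) and 52.3% to 26.3% (KO) at 12 h against 0 h, from 51.5% to 36.6% in WT at 3 h against 0 h, from 49.3% to 29.7% in WT at 3 h against 1 h, and at 12 h against 3 h from 58% to 19.6% (WT) and 60.8% to 22.6% (KO). No called change of the 9 genes turned its direction under that scaling. In whole liver, fewer cells of a type and less RNA per cell cannot be told apart.

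Across the series the 9 genes moved in several ways, shown in the plot of each liver's level. The PAR bZIP activator RNAs and Usp2 were highest at 0 h and lower after it, Nfil3 climbed to its highest level at 12 h, and Bhlhe40, Bhlhe41 and Wee1 rose at 12 h, the former pair with their lowest group means at 1 h. Ciart dipped at 1 h and was near its 0 h level at 12 h. A gene is called changed where the adjusted p of edgeR's quasi-likelihood test, with Benjamini-Hochberg adjustment over all 13204 genes, is under 0.05.

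**Figure D1:**
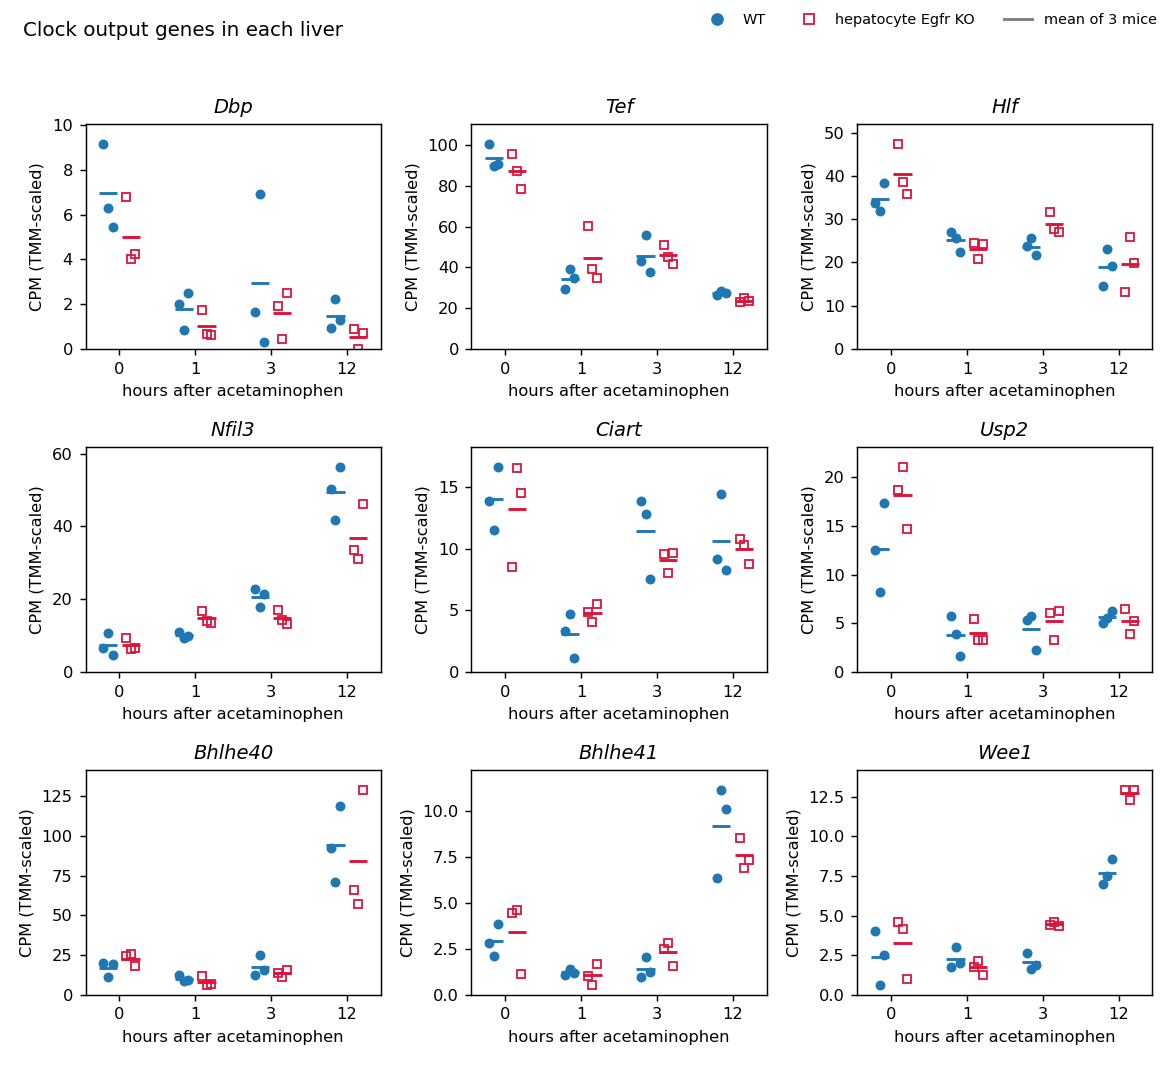
Level of each clock output gene (vertical axes, TMM-scaled CPM, different in each panel) against hours after APAP (horizontal axes), with WT livers as filled circles, KO livers as open squares and the mean of 3 mice as a bar. Tef falls from 78.6 or more in every 0 h liver to 28.4 or less in every 12 h liver, while Nfil3, Bhlhe40, Bhlhe41 and Wee1 are highest at 12 h.

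In WT livers 4 of the 9 genes fell by 1 h and none rose, where 4% of all genes tested were called lower and 4.09% higher. In KO livers 7 fell and 1 rose by 1 h, against 3.64% and 3.95% of all genes. By 3 h, 3 fell and 1 rose in WT livers, against 6.85% and 7.28% of all genes, and 3 fell and 1 rose in KO livers, against 4.84% and 5.11%. By 12 h, 4 fell and 4 rose in each genotype: in WT 12.2% of all genes were lower and 13.4% higher, and in KO 13.7% and 15.1%. The 12 h libraries are those with more mitochondrial ribosomal RNA and fewer counts. With that RNA and the gene AY036118 removed before scaling, 8 of the 9 genes were again called at 12 h in each genotype. That removal leaves the fewer counts of these libraries in place. All 12 h livers share these traits, so library quality and time cannot be told apart at 12 h. The share of the 9 called in either direction was above that of all genes in each of these 6 responses. The median log2 change of the 9 genes at 1 h was -1.29 in WT and -1.46 in KO, beside -0.00808 and -0.00213 for all genes, and at 12 h it was -0.41 in both because rises and falls offset each other.

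**Figure D2:**
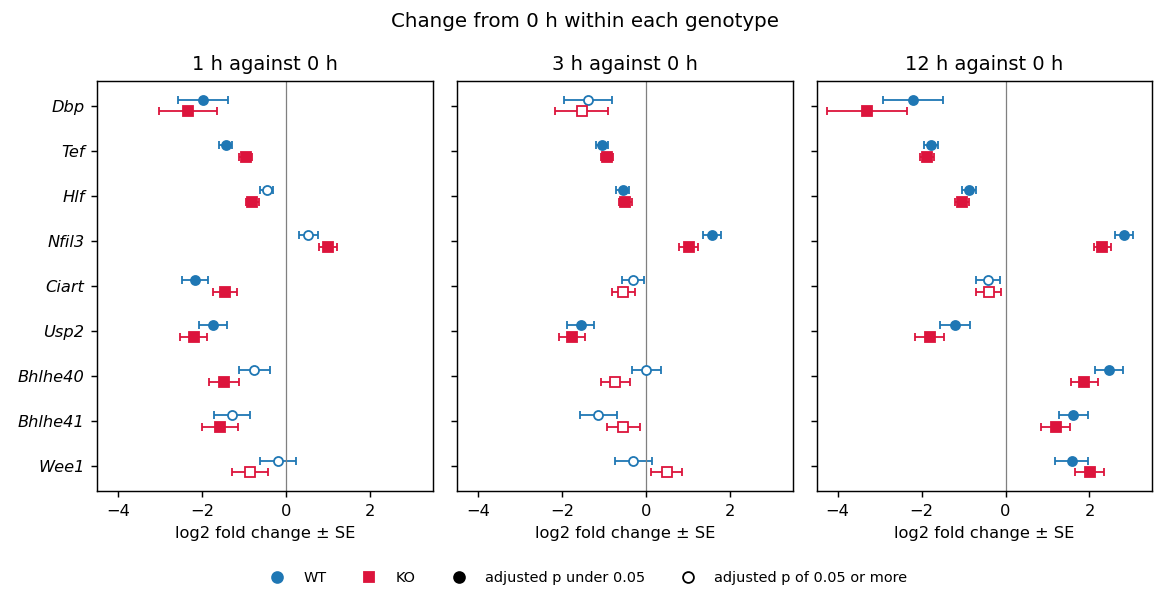
Log2 fold change from 0 h with its standard error (horizontal axes) for each gene at 1, 3 and 12 h, WT as circles and KO as squares, filled where the adjusted p is under 0.05. The activators lie left of 0 at each time, Nfil3 lies right of it, and Bhlhe40, Bhlhe41 and Wee1 lie well to the right at 12 h.

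Tef, which encodes thyrotroph embryonic factor, gave the firmest fall of the activators. Its levels in the 3 WT livers were 100.5, 89.8 and 90.9 CPM at 0 h, 29.5, 39.1 and 34.9 at 1 h, 43.1, 56.1 and 37.7 at 3 h, and 26.6, 28.4 and 27.2 at 12 h. In the KO livers they were 95.8, 87.4 and 78.6 CPM at 0 h, 60.5, 39.2 and 34.8 at 1 h, 50.9, 44.9 and 41.9 at 3 h, and 22.9, 24.8 and 23.4 at 12 h. Every liver after dosing was below every liver at 0 h. In WT livers Tef fell by 1.44 on the log2 scale at 1 h (SE 0.154, edgeR adjusted p = 2e-07), by 1.04 at 3 h (SE 0.152, adjusted p = 1.5e-05) and by 1.78 at 12 h (SE 0.165, adjusted p = 1.09e-09). In KO livers it fell by 0.97 (SE 0.151, edgeR adjusted p = 6.75e-05), 0.92 (SE 0.152, adjusted p = 0.000122) and 1.88 (SE 0.168, adjusted p = 4.98e-10). The KO liver at 60.5 CPM, replicate 1 at 1 h, is the library whose Egfr level lay in the range of the WT 1 h livers. Without it the fall of Tef in KO at 1 h was 1.22 (edgeR adjusted p = 1.01e-06).

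Hlf, hepatic leukemia factor, fell less. WT livers held 33.6, 31.9 and 38.4 CPM at 0 h, 27.1, 25.7 and 22.5 at 1 h, 23.8, 25.6 and 21.6 at 3 h, and 14.6, 23.1 and 19.2 at 12 h. KO livers held 47.3, 38.5 and 35.8 CPM at 0 h, 24.4, 20.8 and 24.4 at 1 h, 31.6, 27.7 and 27.1 at 3 h, and 13.2, 25.8 and 19.9 at 12 h. The livers after dosing lay below the 0 h livers of their genotype at each time. Hlf fell by 0.87 on the log2 scale in WT (SE 0.172, edgeR adjusted p = 0.000302) and by 1.03 in KO livers (SE 0.17, adjusted p = 2.48e-05) at 12 h. At 1 h it fell by 0.80 in KO livers (SE 0.156, edgeR adjusted p = 0.000896), while the WT value of -0.47 (SE 0.157) missed the threshold (adjusted p = 0.063). At 3 h it fell by 0.56 in WT (edgeR adjusted p = 0.0163) and by 0.49 in KO livers (adjusted p = 0.0415). Leaving out replicate 3 of WT 0 h ended the WT call at 3 h (edgeR adjusted p = 0.0822), as did leaving out replicate 3 of WT 3 h (adjusted p = 0.0897) and keeping WT 3 h replicate 1 as the only WT 3 h mouse (-0.54, adjusted p = 0.171). In that last setting the lone library is assumed to vary like the other groups, which supply the spread, and the same holds wherever it is named. The KO call was lost in 15 of the 34 alternatives.

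Dbp, D-site albumin promoter binding protein and the most strongly rhythmic of the activators, was counted thinly. Its gene overlaps Sphk2 on the opposite strand in GENCODE M21 (GRCm38), and the column that ignores strand gave it 402 counts over the 24 libraries, 36.5% of the 1101 counts in the column for reads on the gene's own strand. That share was lowest at 0 h, at 31.3% in the WT and 28% in the KO livers. It was 48.8% to 64% in the groups at 1 h and 3 h, and at 12 h 50% in WT and 33.3% in KO livers. The unstranded column also holds some reads of the opposite strand: WT 1 h replicate 3 had 15 unstranded and 14 own-strand counts. Of the stranded counts of Dbp, 82.3% were on its own strand. How far such reads raise the share after 0 h was not tested. Unstranded levels in WT livers were 9.15, 6.31 and 5.46 CPM at 0 h, 2.01, 0.856 and 2.48 at 1 h, 1.65, 6.91 and 0.316 at 3 h, and 0.949, 2.22 and 1.3 at 12 h. In KO livers they were 6.81, 4.03 and 4.22 CPM at 0 h, 1.74, 0.676 and 0.637 at 1 h, 1.91, 0.436 and 2.49 at 3 h, and 0.879, 0 and 0.698 at 12 h. The 0 is KO 12 h replicate 2, where a count of 0 allows up to 0.737 CPM, counting error alone. Apart from WT 3 h replicate 2 at 6.91 CPM, every liver after dosing was below the lowest 0 h liver.

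On unstranded counts Dbp fell at 1 h by 1.98 on the log2 scale in WT (SE 0.595, edgeR adjusted p = 0.0462) and by 2.34 in KO livers (SE 0.685, adjusted p = 0.0417). It fell at 12 h by 2.21 in WT (SE 0.712, edgeR adjusted p = 0.0284) and by 3.30 in KO livers (SE 0.955, adjusted p = 0.0137). The 3 h values of -1.37 in WT (edgeR adjusted p = 0.125) and -1.53 in KO livers (adjusted p = 0.151) missed the threshold. The 1 h calls were lost in 22 (WT) and 15 (KO) of 34 alternatives, and the KO 12 h call was lost without KO 12 h replicate 2 (-2.61, adjusted p = 0.0766). The WT 12 h call was lost without WT 0 h replicate 1 and without each WT 12 h mouse in turn (adjusted p = 0.0507 to 0.103). Without WT 3 h replicate 2, Dbp fell by 2.76 at 3 h in WT (edgeR adjusted p = 0.000929) and the KO value at 3 h also passed the test (-1.52, adjusted p = 0.0305).

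**Figure D3:**
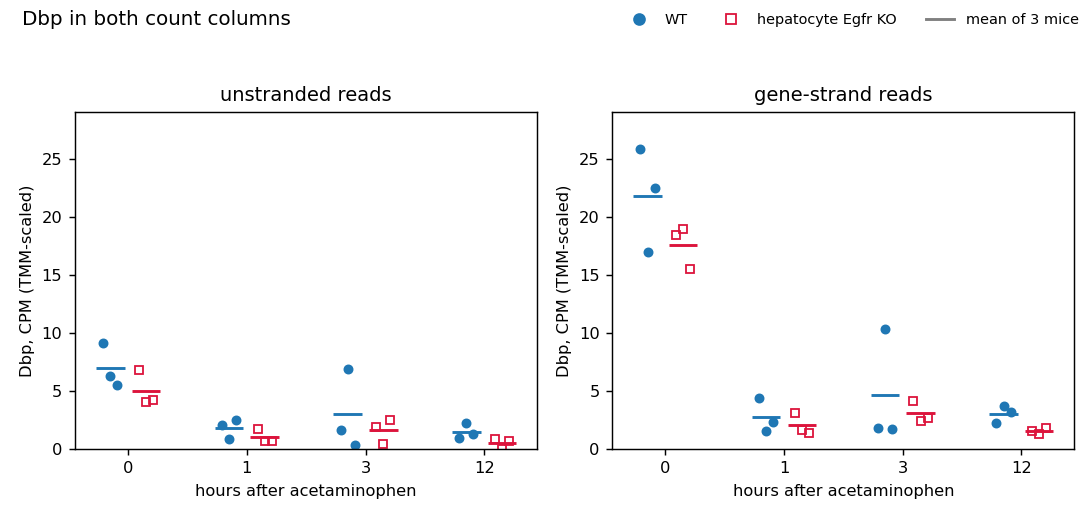
Dbp level (vertical axes, TMM-scaled CPM) against hours after APAP from the unstranded counts (left) and from reads on the gene's own strand (right), WT as filled circles, KO as open squares, bars at the mean of 3 mice. Own-strand levels at 0 h are 15.5 to 25.8 CPM, and WT 3 h replicate 2 at 10.3 CPM is the highest liver after dosing.

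Reads on the gene's own strand gave Dbp a clear separation. WT livers held 25.8, 17.0 and 22.5 CPM at 0 h, 4.42, 1.56 and 2.29 at 1 h, 1.8, 10.3 and 1.74 at 3 h, and 2.26, 3.7 and 3.16 at 12 h. KO livers held 18.4, 18.9 and 15.5 CPM at 0 h, 3.12, 1.63 and 1.4 at 1 h, 4.13, 2.41 and 2.65 at 3 h, and 1.5, 1.25 and 1.79 at 12 h. No liver after dosing reached the lowest liver at 0 h. On these counts Dbp fell in all 6 responses: in WT by 2.97 on the log2 scale at 1 h (edgeR adjusted p = 0.00024), 2.37 at 3 h (adjusted p = 0.000778) and 2.83 at 12 h (adjusted p = 0.000281). In KO livers it fell by 3.14 (edgeR adjusted p = 0.000348), 2.48 (adjusted p = 0.00175) and 3.55 (adjusted p = 0.000142). The count column moved the other 8 genes by less: Usp2 and Bhlhe40 had 68.2% and 86.1% as many unstranded as own-strand counts, Ciart had 114%, and the other 5 had 99.9% to 104%. Antisense or predicted genes also overlap Tef, Bhlhe40, Bhlhe41 and Wee1, of whose stranded counts 96% to 99.4% were on their own strand.

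Nfil3, the repressor of D-box genes, moved the opposite way. WT livers held 6.57, 10.7 and 4.53 CPM at 0 h, 10.8, 9.41 and 9.75 at 1 h, 22.9, 17.9 and 21.3 at 3 h, and 50.3, 41.7 and 56.3 at 12 h. KO livers held 9.34, 6.27 and 6.58 CPM at 0 h, 16.7, 13.9 and 13.5 at 1 h, 16.9, 14.4 and 13.2 at 3 h, and 33.4, 30.95 and 46.1 at 12 h. In WT the 3 h and 12 h livers were each above all livers of the earlier times, and in KO the 1 h and 3 h livers overlapped. Nfil3 rose in WT by 1.57 on the log2 scale at 3 h (SE 0.212, edgeR adjusted p = 5.54e-06) and by 2.82 at 12 h (SE 0.208, adjusted p = 1.08e-11), a fitted 7.07-fold. The WT 1 h value of 0.52 (SE 0.225) missed the threshold (edgeR adjusted p = 0.178), and passed it without WT 0 h replicate 2 (0.85, adjusted p = 0.0187). In KO livers it rose by 0.99 at 1 h (SE 0.212, edgeR adjusted p = 0.00245), 1.02 at 3 h (SE 0.215, adjusted p = 0.00221) and 2.31 at 12 h (SE 0.208, adjusted p = 7.27e-10), a fitted 4.96-fold.

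Because the activators and NFIL3 compete for D-boxes, an index was taken in each liver as the mean log2(CPM + 1) of Dbp, Tef and Hlf minus log2(CPM + 1) of Nfil3, a description with no test. In WT it was 1.91 ± 0.586 (SD, n = 3) at 0 h, 0.298 ± 0.104 at 1 h, -0.518 ± 0.711 at 3 h and -2.18 ± 0.416 at 12 h. In KO it was 1.74 ± 0.0835 (SD, n = 3), -0.289 ± 0.142, -0.0693 ± 0.248 and -2.05 ± 0.23 at the same times. The 0 h livers (1.25 to 2.37) lay above all others and the 12 h livers (-2.45 to -1.7) below all others in both genotypes. At 1 h the WT livers (0.21 to 0.412) lay above the KO livers (-0.392 to -0.127). At 3 h WT replicate 2, at 0.278, stood above the other WT livers at -0.742 and -1.09, and the genotypes overlapped. With a pseudocount of 0.1 in place of 1, the mean kept its sign in every group. It then moved by more than the SD at 1 h in WT (to 0.18) and KO (to -0.546) and at 12 h in KO (to -2.65). The WT mean at 12 h was then -2.42, so the order of the genotypes at 12 h turned. On own-strand counts, a setting chosen after the data were seen, the index kept the sign of its mean in all groups but KO 3 h, where it was 0.138.

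**Figure D4:**
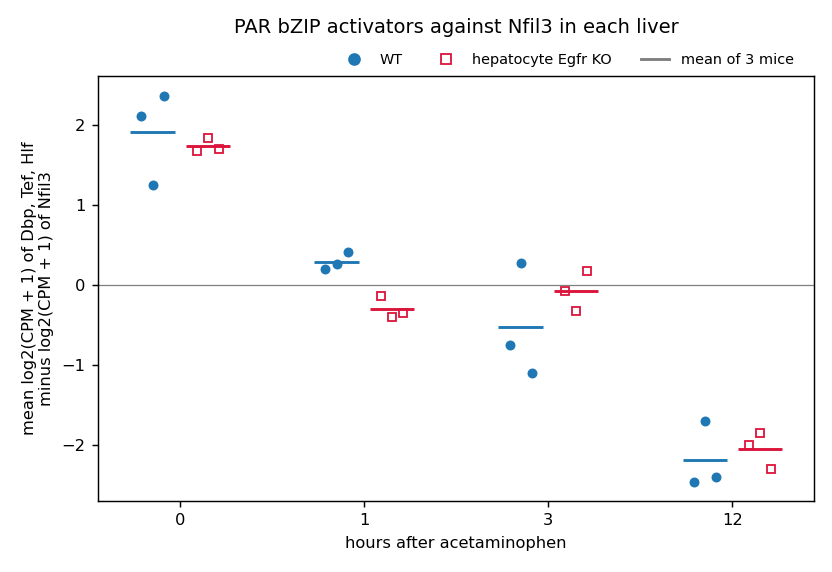
Index of the PAR bZIP activators against Nfil3 in each liver (vertical axis, log2 units) against hours after APAP, WT as filled circles, KO as open squares, bars at the mean of 3 mice. All 0 h livers lie at 1.25 or above and all 12 h livers at -1.7 or below.

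Ciart, a repressor of BMAL1 and CLOCK, dipped and came back. WT livers held 13.9, 11.6 and 16.6 CPM at 0 h, 3.35, 4.71 and 1.16 at 1 h, 13.9, 12.8 and 7.57 at 3 h, and 9.17, 14.4 and 8.3 at 12 h. KO livers held 8.55, 16.6 and 14.5 CPM at 0 h, 4.88, 4.05 and 5.48 at 1 h, 9.57, 8.06 and 9.65 at 3 h, and 10.8, 10.3 and 8.73 at 12 h. The 1 h livers lay below every other liver of their genotype, and the 3 h and 12 h livers overlapped those at 0 h. Ciart fell at 1 h by 2.17 on the log2 scale in WT (SE 0.31, edgeR adjusted p = 4.38e-05) and by 1.46 in KO livers (SE 0.289, adjusted p = 0.00172). From 1 h to 3 h it rose by 1.86 in WT (SE 0.319, edgeR adjusted p = 0.000824), and the KO value of 0.93 (SE 0.307) missed the threshold (adjusted p = 0.477). At 12 h against 0 h it was at -0.41 in both genotypes (edgeR adjusted p = 0.313 in WT and 0.317 in KO), and with library size alone the WT value of -0.77 passed the test (adjusted p = 0.0356). Ciart had 167% as many unstranded as own-strand counts in WT and 131% in KO livers at 1 h, against 108% to 114% in the other groups. On own-strand counts WT livers held 13.2, 9.98 and 15.3 CPM at 0 h and 1.87, 2.98 and 0.655 at 1 h, and the fall at 1 h was 2.78 in WT (SE 0.372, edgeR adjusted p = 3.44e-05), a fitted 6.86-fold against 4.49-fold on unstranded counts, and 1.67 in KO livers (adjusted p = 0.00313). An antisense gene, C920021L13Rik, overlaps Ciart, and 87.4% of its stranded counts were on its own strand.

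Usp2 fell at once and did not return. WT livers held 12.5, 8.2 and 17.3 CPM at 0 h, 5.76, 3.85 and 1.65 at 1 h, 5.37, 5.69 and 2.21 at 3 h, and 5.06, 5.56 and 6.22 at 12 h. KO livers held 18.7, 21.0 and 14.7 CPM at 0 h, 5.4, 3.24 and 3.31 at 1 h, 6.04, 3.27 and 6.22 at 3 h, and 6.45, 3.93 and 5.24 at 12 h. No liver after dosing reached the lowest liver at 0 h. In WT Usp2 fell by 1.74 on the log2 scale at 1 h (SE 0.332, edgeR adjusted p = 0.00138), 1.56 at 3 h (SE 0.333, adjusted p = 0.00251) and 1.20 at 12 h (SE 0.355, adjusted p = 0.0153). In KO livers it fell by 2.21 (SE 0.322, edgeR adjusted p = 8.38e-05), 1.76 (SE 0.315, adjusted p = 0.000756) and 1.81 (SE 0.352, adjusted p = 0.000426). The WT 12 h call was lost on own-strand counts (-0.90, adjusted p = 0.0819), and without WT 0 h replicate 3 (-0.92, adjusted p = 0.0792), WT 12 h replicate 1 (-1.13, adjusted p = 0.0624) or WT 12 h replicate 2 (-1.18, adjusted p = 0.0539). The WT 3 h call was lost with WT 3 h replicate 1 as the only WT mouse at that time (-1.27, adjusted p = 0.0794). Genes on the opposite strand, Gm49380 and Gm39325, overlap Usp2.

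Bhlhe40 (DEC1) and Bhlhe41 (DEC2), related repressors of E-box genes, had their lowest group means at 1 h and their highest at 12 h. For Bhlhe40, WT livers held 19.7, 11.1 and 19.6 CPM at 0 h, 12.2, 8.85 and 9.25 at 1 h, 12.2, 25.2 and 15.5 at 3 h, and 92.7, 70.9 and 119 at 12 h. KO livers held 24.7, 25.4 and 18.4 CPM at 0 h, 11.7, 6.22 and 7.01 at 1 h, 14.0, 11.3 and 15.6 at 3 h, and 66.2, 57.0 and 129 at 12 h. The lowest 12 h liver, at 57.0 CPM, was above the highest liver of any earlier time, at 25.4 CPM. Bhlhe40 rose at 12 h by 2.46 on the log2 scale in WT (SE 0.33, edgeR adjusted p = 2.5e-05) and by 1.87 in KO livers (SE 0.322, adjusted p = 0.000285). At 1 h it fell by 1.48 in KO livers (SE 0.366, edgeR adjusted p = 0.0176), and the WT value of -0.76 (SE 0.364) missed the threshold (adjusted p = 0.26). The KO call at 1 h was lost without KO 0 h replicate 1 or 2 and without KO 1 h replicate 2 or 3 (adjusted p = 0.058 to 0.105). At 3 h neither genotype passed the test (0.01, edgeR adjusted p = 0.99, in WT and -0.72, adjusted p = 0.228, in KO).

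Bhlhe41 was scarcer, with 419 counts over the 24 libraries. WT livers held 2.84, 2.1 and 3.86 CPM at 0 h, 1.07, 1.43 and 1.16 at 1 h, 0.964, 2.03 and 1.26 at 3 h, and 6.33, 11.1 and 10.1 at 12 h. KO livers held 4.43, 4.63 and 1.12 CPM at 0 h, 1.04, 0.541 and 1.66 at 1 h, 2.5, 2.83 and 1.56 at 3 h, and 8.5, 6.88 and 7.33 at 12 h. Every 12 h liver was above every earlier liver, and KO 0 h replicate 3 lay within the 1 h range. Bhlhe41 rose at 12 h by 1.61 on the log2 scale in WT (SE 0.347, edgeR adjusted p = 0.000749) and by 1.19 in KO livers (SE 0.353, adjusted p = 0.0109). The KO 12 h call was lost without KO 0 h replicate 3 (0.74, adjusted p = 0.0861). At 1 h it fell by 1.57 in KO livers (SE 0.432, edgeR adjusted p = 0.0196), a call lost with only the groups compared in the model (adjusted p = 0.143) and without KO 0 h replicate 1, KO 0 h replicate 2 or KO 1 h replicate 2 (adjusted p = 0.104, 0.14 and 0.151). The WT values of -1.29 at 1 h (edgeR adjusted p = 0.063) and -1.13 at 3 h (adjusted p = 0.0803) and the KO value of -0.54 at 3 h (adjusted p = 0.446) missed the threshold.

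Wee1 did not pass the test before 12 h. WT livers held 4.0, 0.631 and 2.53 CPM at 0 h, 1.74, 3.0 and 1.98 at 1 h, 2.62, 1.62 and 1.89 at 3 h, and 6.96, 7.5 and 8.56 at 12 h. KO livers held 4.59, 4.18 and 0.993 CPM at 0 h, 1.74, 2.16 and 1.27 at 1 h, 4.42, 4.58 and 4.36 at 3 h, and 12.9, 12.3 and 12.9 at 12 h. The 12 h livers were above all earlier livers, with the KO livers above the WT livers. Wee1 rose at 12 h by 1.57 on the log2 scale in WT (SE 0.384, edgeR adjusted p = 0.003) and by 2.00 in KO livers (SE 0.349, adjusted p = 7.01e-05). Without KO 0 h replicate 3, the lowest of its group, Wee1 fell by 1.32 in KO at 1 h (edgeR adjusted p = 0.0256), beside -0.87 (adjusted p = 0.238) with it.

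Ordered by group mean, Tef, Dbp and Ciart were highest at 0 h in WT, and Hlf and Usp2 at 0 h in KO livers. The highest group mean was 13.3 times the lowest for Dbp, 3.96 times for Tef, 2.14 times for Hlf, 4.57 times for Ciart and 4.83 times for Usp2. The lowest mean of Dbp, in KO at 12 h, includes the liver at 0 counts: without that liver the ratio was 8.84, and on own-strand counts with all livers it was 14.4, both settings chosen after the data were seen. Nfil3, Bhlhe40 and Bhlhe41 were highest at 12 h in WT and Wee1 at 12 h in KO livers, with ratios of 6.79, 11.3, 8.5 and 7.36. For each of the 9 genes the leading pair of group means was WT and KO at the same time, and the livers of that pair overlapped for 8 genes and lay apart for Wee1. Of the 7 neighbouring pairs in each order, the livers of all 7 overlapped for Dbp, of 6 for Ciart, Usp2, Bhlhe40 and Bhlhe41, of 5 for Hlf and Wee1, of 4 for Tef and of 3 for Nfil3. Neighbours in an order of means are close by construction, and the same count over all genes was not made. These counts therefore describe each gene's own order only. The neighbours of Bhlhe40 and Bhlhe41 that lay apart were KO at 12 h and KO at 0 h, which set the 12 h livers off from the rest, and that of Ciart was KO at 3 h above KO at 1 h.

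Between 1 h and 3 h, 2 of the 9 genes rose in WT and none fell, where 3.17% of all genes were higher and 3.26% lower. These were Ciart, above, and Nfil3, by 1.05 on the log2 scale (SE 0.2, edgeR adjusted p = 0.00131). The other 7 missed the threshold in WT, with values of 0.61 for Dbp, 0.40 for Tef, -0.09 for Hlf, 0.19 for Usp2, 0.77 for Bhlhe40, 0.16 for Bhlhe41 and -0.10 for Wee1 (smallest edgeR adjusted p = 0.129). In KO livers none of the 9 was called by edgeR between 1 h and 3 h, 3 were under an unadjusted p of 0.05, DESeq2 called 0, and of all genes 0% were higher and 0% lower. Under the same unadjusted edgeR p were 958 of the 13204 genes. The KO values were 0.82 for Dbp, 0.04 for Tef, 0.32 for Hlf, 0.02 for Nfil3, 0.45 for Usp2, 0.75 for Bhlhe40, 1.03 for Bhlhe41 and 1.36 for Wee1, with that of Ciart above. With no filter on low counts, Ciart (0.94, edgeR adjusted p = 0.0176) and Wee1 (1.37, adjusted p = 0.0217) passed the test in that step.

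Between 3 h and 12 h, Nfil3, Bhlhe40, Bhlhe41 and Wee1 rose and Tef fell in WT, against 7.43% of all genes higher and 5.38% lower. The rises in WT were 1.25, 2.45, 2.75 and 1.87 on the log2 scale in that order (edgeR adjusted p = 1.42e-05, 6.13e-05, 1e-05 and 0.00178), and Tef fell by 0.73 (adjusted p = 0.00292). In KO livers the same 4 genes rose, by 1.29, 2.60, 1.73 and 1.51 (edgeR adjusted p = 2.18e-05, 4.98e-05, 0.00201 and 0.0029), and Tef and Hlf fell, by 0.95 (adjusted p = 0.000205) and 0.54 (adjusted p = 0.0363), against 7.84% and 5.06% of all genes. Dbp (-0.84 in WT and -1.78 in KO), Ciart (-0.10 and 0.13) and Usp2 (0.36 and -0.05) missed the threshold in both genotypes, as did Hlf in WT (-0.31). With WT 3 h replicate 1 as the only WT 3 h mouse, the WT calls of Tef (adjusted p = 0.064) and Wee1 (adjusted p = 0.117) were lost. The KO call of Hlf was lost in 5 alternatives (adjusted p up to 0.249).

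Loss of EGFR in hepatocytes gave no called difference in any of the 9 genes. Comparing KO with WT livers, edgeR called 0 of the 9 at 0, 1, 3 and 12 h, with 0, 2, 2 and 2 under an unadjusted p of 0.05, and DESeq2 also called 0 at each time. Of all genes, edgeR called 0.0151% at 0 h, 0.492% at 1 h, 0.977% at 3 h and 0.053% at 12 h. Under an unadjusted edgeR p of 0.05 were 1072, 1289, 1377 and 1362 of the 13204 genes at these times. The values at 0 h ran from -0.49 for Dbp (SE 0.51) to 0.48 for Usp2 (SE 0.277), with Tef at -0.10, Hlf at 0.22, Nfil3 at 0.08, Ciart at -0.10, Bhlhe40 at 0.41, Bhlhe41 at 0.13 and Wee1 at 0.29, and the smallest adjusted p was 0.68. Missing the threshold does not show equal levels: with 3 mice a group the standard errors of these differences ran up to 1.28, for Dbp at 12 h.

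The livers of the genotypes lay apart, with no call, for Nfil3 and Wee1 at the times given below and for Dbp, Tef and Hlf at others. How many of all genes lay apart likewise was not counted, so no genotype effect is read from these separations. Nfil3 was at 13.5 to 16.7 CPM in KO and 9.41 to 10.8 in WT livers at 1 h, a difference of 0.55 on the log2 scale (SE 0.204, unadjusted p = 0.0119 and edgeR adjusted p = 0.304). At 3 h the order was the reverse, 13.2 to 16.9 CPM in KO and 17.9 to 22.9 in WT livers (-0.48, SE 0.194, edgeR adjusted p = 0.334), and at 12 h the ranges overlapped (-0.44, SE 0.184, edgeR adjusted p = 0.39). Wee1 was at 4.36 to 4.58 CPM in KO and 1.62 to 2.62 in WT livers at 3 h (1.08, SE 0.407, edgeR adjusted p = 0.297). At 12 h it was at 12.3 to 12.9 CPM in KO and 6.96 to 8.56 in WT livers (0.72, SE 0.338, edgeR adjusted p = 0.469). Dbp at 12 h was at 0 to 0.879 CPM in KO and 0.949 to 2.22 in WT livers, a difference of -1.59 (SE 1.28, edgeR adjusted p = 0.724), which was -0.90 without KO 12 h replicate 2 (adjusted p = 0.953) and -1.04 on own-strand counts (SE 0.83, adjusted p = 0.705). Tef at 12 h was at 22.9 to 24.8 CPM in KO and 26.6 to 28.4 in WT livers (-0.21, SE 0.183, edgeR adjusted p = 0.752). Hlf at 3 h was at 27.1 to 31.6 CPM in KO and 21.6 to 25.6 in WT livers (0.29, SE 0.162, edgeR adjusted p = 0.575).

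Tef at 1 h differed by 0.37 (SE 0.156, edgeR adjusted p = 0.393) with overlapping livers, and by 0.11 without KO 1 h replicate 1 (adjusted p = 0.877). The remaining values of KO against WT at 1 h were -0.85 for Dbp, -0.12 for Hlf, 0.61 for Ciart, 0.02 for Usp2, -0.32 for Bhlhe40, -0.15 for Bhlhe41 and -0.38 for Wee1. At 3 h they were -0.65 for Dbp, 0.02 for Tef, -0.32 for Ciart, 0.28 for Usp2, -0.33 for Bhlhe40 and 0.72 for Bhlhe41. At 12 h they were 0.06 for Hlf, -0.09 for Ciart, -0.13 for Usp2, -0.18 for Bhlhe40 and -0.29 for Bhlhe41.

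The change since 0 h was also compared between genotypes directly, by the interaction of genotype and time. None of the 9 genes was called by edgeR or by DESeq2 at 1, 3 or 12 h, 1 was under an unadjusted p of 0.05 at 1 h and 0 at the later times, and of all genes 0.454%, 0.151% and 0.0227% were called. Under the same unadjusted edgeR p were 1443, 1145 and 1350 of the 13204 genes. Among the 9 genes, the value under an unadjusted p of 0.05 was that of Tef at 1 h, whose fall was 0.48 smaller in KO livers (SE 0.214, unadjusted p = 0.0338 and edgeR adjusted p = 0.403). That value rested on KO 1 h replicate 1, the library with Egfr in the range of the WT 1 h livers: without it the value was 0.21 (adjusted p = 0.743). Genes called in 1 genotype only, such as Hlf and Bhlhe40 at 1 h, are therefore not shown to respond differently: their interaction values were -0.34 (SE 0.221, edgeR adjusted p = 0.637) and -0.72 (SE 0.519, adjusted p = 0.679). The others at 1 h were -0.36 for Dbp, 0.47 for Nfil3, 0.71 for Ciart, -0.46 for Usp2, -0.28 for Bhlhe41 and -0.67 for Wee1. At 3 h the interaction was -0.16 for Dbp, 0.12 for Tef, 0.07 for Hlf, -0.56 for Nfil3, -0.22 for Ciart, -0.20 for Usp2, -0.74 for Bhlhe40, 0.59 for Bhlhe41 and 0.79 for Wee1. At 12 h it was -1.10 for Dbp, -0.10 for Tef, -0.16 for Hlf, -0.51 for Nfil3, 0.01 for Ciart, -0.61 for Usp2, -0.59 for Bhlhe40, -0.42 for Bhlhe41 and 0.43 for Wee1.

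The 15 core clock genes, from which these outputs receive their rhythm, were all tested and changed as well. At 1 h, 3 were higher and 6 lower in WT, where 4.09% and 4% of all genes were, and 2 higher and 3 lower in KO livers, against 3.95% and 3.64%. At 3 h, 3 were higher and 4 lower in WT, against 7.28% and 6.85% of all genes, and 3 and 0 in KO livers, against 5.11% and 4.84%. At 12 h, 9 were higher and 1 lower in WT, against 13.4% and 12.2% of all genes, and 8 and 1 in KO livers, against 15.1% and 13.7%. Bmal1, the positive arm of the loop, was at 3.48 to 6.00 CPM in WT livers at 0 h, 17.7 to 25.6 at 1 h, 15.2 to 27.6 at 3 h and 24.2 to 28.8 at 12 h. It rose by 2.10, 2.18 and 2.42 on the log2 scale in WT and by 1.72, 1.86 and 1.84 in KO livers, and the largest of the 6 edgeR adjusted p-values was 4.47e-05. Per3, whose product belongs to the negative arm, fell by 2.56, 1.84 and 1.86 in WT and by 1.17 and 1.58 in KO livers at 1 h and 12 h (largest edgeR adjusted p = 0.0318). Per2 and Nr1d1 took a path like that of Bhlhe41: in WT Per2 fell by 0.75 and 0.83 at 1 h and 3 h and rose by 1.25 at 12 h, and Nr1d1, which encodes the repressor REV-ERB alpha, fell by 1.16 and 0.85 and rose by 0.83. In KO livers Per2 fell by 1.62 at 1 h and rose by 1.07 at 12 h, and Nr1d1 rose by 0.98 at 12 h (largest edgeR adjusted p = 0.00821).

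Npas2, a relative of Clock that also pairs with BMAL1, was at 0.258 to 0.533 CPM in WT livers at 0 h and 2.03 to 4.15 after it. It rose in WT by 3.10, 2.53 and 2.61 on the log2 scale at 1, 3 and 12 h and in KO livers by 3.21 and 2.81 at 1 h and 3 h (largest edgeR adjusted p = 0.00442). Clock rose in WT at 1 h by 0.55 (edgeR adjusted p = 0.000837). Of the negative arm, Per1 fell by 0.62 and Cry2 by 0.75 in WT at 1 h (edgeR adjusted p = 0.00926 and 0.00773), and Nr1d2, which encodes REV-ERB beta, fell in WT by 0.87 at 1 h and 0.53 at 3 h and in KO livers by 0.50 at 1 h (largest adjusted p = 0.0364). Cry1 rose at 3 h by 1.07 in WT and 0.93 in KO livers (edgeR adjusted p = 0.00573 and 0.0165). At 12 h Per1, Cry1, Cry2, Rora and Csnk1e rose in WT by 1.00, 1.81, 0.99, 0.64 and 1.02 (largest edgeR adjusted p = 0.00386) and in KO livers by 0.73, 1.48, 0.56, 0.62 and 0.80 (largest adjusted p = 0.0207). Rora encodes an activator of Bmal1, and Csnk1e a kinase that marks PER proteins. The median log2 change of the 15 genes at 12 h was 0.83 in WT and 0.62 in KO livers, beside -0.011 and -0.00293 for all genes.

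**Figure D5:**
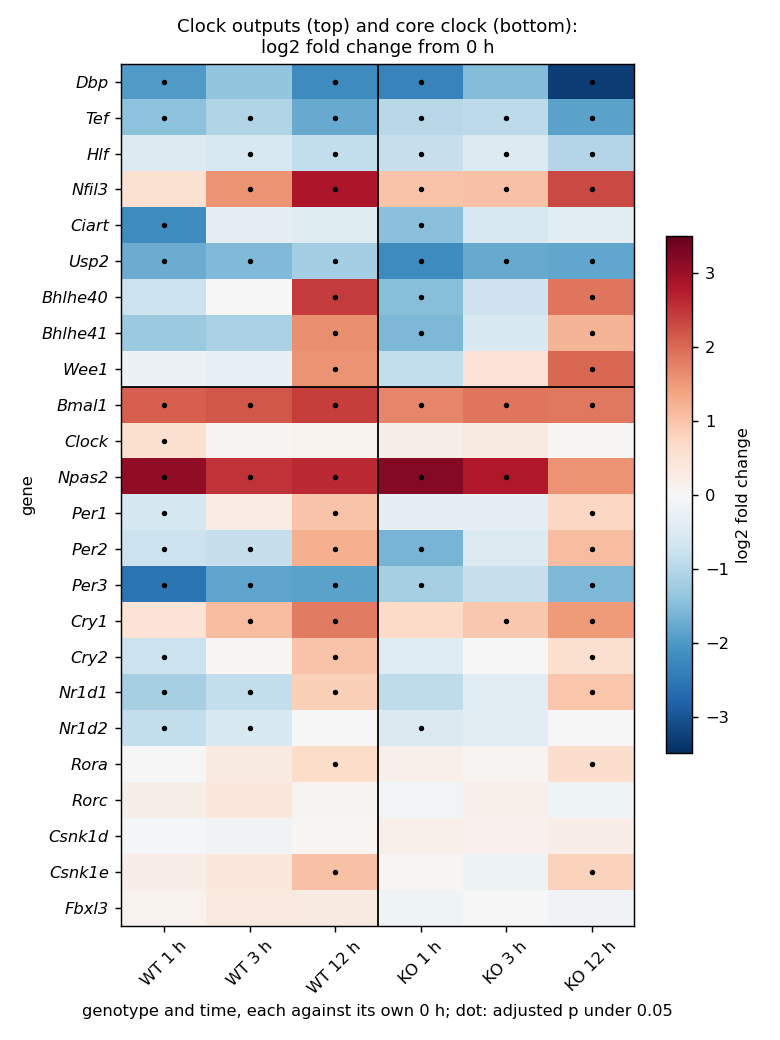
Log2 fold change from 0 h (colour, blue lower and red higher) of the 9 clock outputs (upper rows) and 15 core clock genes (lower rows) in WT and KO livers at 1, 3 and 12 h (columns), with a dot where the adjusted p is under 0.05. Bmal1 is red in all 6 columns, while Dbp, Tef, Hlf and Usp2 are blue in all 6.

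Genes known as targets of the PAR bZIP factors in drug and heme metabolism mostly fell where they passed the test. Of the 8 listed, 7 passed the filter on low counts, Cyp2a4 not being among them. In WT, 3 fell at 1 h, 2 at 3 h and 4 at 12 h and none rose, where 4%, 6.85% and 12.2% of all genes were lower. In KO livers 2, 1 and 4 fell, against 3.64%, 4.84% and 13.7% of all genes, and 1 rose at 12 h, against 15.1%. Ppara, the nuclear receptor of fatty acid oxidation, was at 231 to 262 CPM in WT livers at 0 h, 163 to 215.5 at 1 h, 88.0 to 121 at 3 h and 87.3 to 102 at 12 h. It fell by 1.23 and 1.42 on the log2 scale in WT at 3 h and 12 h and by 0.79, 0.69 and 1.46 in KO livers at 1, 3 and 12 h (largest edgeR adjusted p = 0.00526). Cyp2a5, a cytochrome P450, fell at 12 h by 1.96 in WT (edgeR adjusted p = 0.00121) and by 2.37 in KO livers (adjusted p = 0.000224), and Nr1i3, the receptor CAR, fell by 1.08 (adjusted p = 0.0278) and 1.58 (adjusted p = 0.00313). Cyp2a5 also fell in WT at 1 h, by 1.62 (edgeR adjusted p = 0.0117), and Nr1i3 in WT at 3 h, by 1.66 (adjusted p = 0.00146), and in KO livers at 1 h, by 1.11 (adjusted p = 0.0289). Alas1, the first enzyme of heme synthesis, fell in WT at 1 h and 12 h, by 0.91 and 0.93 (edgeR adjusted p = 0.0384 and 0.015), and Por, the electron donor of cytochromes P450, fell in WT at 1 h by 0.46 (adjusted p = 0.0154). Cyp7a1, the rate-limiting enzyme of bile acid synthesis, fell in KO livers at 12 h by 2.08 (adjusted p = 0.00222). The gene that rose was Cyp2b10, at 2.44 to 25.8 CPM in KO livers at 12 h against 0.746 to 1.74 at 0 h (3.40, edgeR adjusted p = 0.0233). With no call, WT livers held 0.666 to 1.16 CPM of Cyp2b10 at 0 h, 2.85 to 7.1 at 1 h and 3.25 to 12.1 at 3 h. At 12 h the WT livers, at 0.259 to 5 CPM, overlapped those at 0 h.

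Among the mitotic partners of Wee1, 2 of 8 listed passed the filter on low counts. Cdkn1a, which encodes the cell cycle inhibitor p21, rose in WT by 2.05 on the log2 scale at 1 h (edgeR adjusted p = 0.00476), 3.11 at 3 h (adjusted p = 6.79e-05) and 3.86 at 12 h (adjusted p = 2e-06), and in KO livers by 1.62 at 3 h (adjusted p = 0.00872) and 2.66 at 12 h (adjusted p = 3.8e-05). Ccnb2, a mitotic cyclin, rose in WT at 3 h by 1.79 (edgeR adjusted p = 0.00736).

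Markers of other liver cells moved with some groups, and their part in the results was not tested. At 1 h in WT, where 4 outputs fell, the 6 Kupffer cell markers summed to 39 to 48.2 CPM against 53.6 to 114 at 0 h, 4 of the 6 were called lower and none was at 0, while in KO livers at 1 h, where 7 outputs fell, the sum was 50.6 to 72.8 CPM against 46.3 to 58.9 and 0 of 6 were called. At 12 h, where Nfil3, Bhlhe40, Bhlhe41 and Wee1 rose, the 5 cholangiocyte markers summed to 109 to 221 CPM in WT and 33.9 to 126 in KO livers against 18.8 to 24.6 at 0 h. Of these, 2 passed the filter and Sox9 was called higher in both genotypes, and Krt7 was at 0 in all WT 12 h livers. Of 5 red blood cell markers, Hbb-bt was called higher in WT at 3 h, where the sum was 80.1 to 331 CPM against 63.7 to 146 at 0 h, the group of the liver with the high Dbp level. At 12 h in KO livers Alas2 of that list was called lower.

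Of 4 monocyte markers, 2 were tested, and Cd14 was called higher at 3 h and 12 h in WT (2.86 and 2.66 on the log2 scale) and KO livers (2.43 and 3.27, largest of the 4 edgeR adjusted p-values 0.00261). The monocyte sum was 11.4 to 21.1 CPM at 3 h and 14.2 to 15.8 at 12 h in WT against 10.1 to 18.1 at 0 h, and in KO livers 8.87 to 9.8 and 10.6 to 18.5 against 7.01 to 9.97, with Ly6c2 at 0 in all WT 3 h, KO 0 h, KO 3 h and KO 12 h livers. Of the 6 hepatocyte markers, Tat and Cyp2e1 were called lower in WT at 1 h (-0.62 and -0.68), Cyp2e1 also in WT at 3 h and 12 h (-0.67 and -0.92) and in KO livers at 12 h (-0.999). Alb and Ttr were called higher in WT at 3 h and 12 h, Apoa1 in WT at 12 h and Alb in KO livers at 12 h (0.38 to 0.76), and none was called in KO livers at 1 h and 3 h. The hepatocyte sum was 31000 to 35500 CPM in WT at 0 h, 44000 to 49900 at 3 h and 40200 to 45400 at 12 h, and 30500 to 37900 at 0 h and 37400 to 42100 at 12 h in KO livers. Of the 6 sinusoidal endothelial and 6 stellate markers, Pecam1 and Dcn were called higher at 12 h in both genotypes, Clec4g lower in KO livers at 3 h and Des higher in KO livers at 1 h. Of the Kupffer list, Marco was called lower in WT at 12 h. None of the 5 neutrophil or 5 lymphocyte markers passed the filter, and the neutrophil sum was 3.11 to 9.73 CPM in WT and 3.19 to 3.84 in KO livers at 12 h against 0.387 to 1.68 and 0.497 to 0.633 at 0 h.

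The genes most like each output were taken as the 3 with the highest Pearson correlation of log2(CPM + 1) over the 24 libraries, among 7368 tested genes of at least 5 CPM. The libraries share their groups and depth, so these are descriptions. Tef was most like Abca6 (r = 0.949), N4bp2l1 (0.923) and Gne (0.922), and Dbp like Slc2a9 (0.855), Gne (0.842) and Cnppd1 (0.815). Hlf was most like Smarcd2 (r = 0.889), Dhtkd1 (0.878) and Mpzl2 (0.854). Gne, which encodes an enzyme of sialic acid synthesis, was on both the Tef and the Dbp list. Nfil3 was most like Tiparp (r = 0.956), a target of the aryl hydrocarbon receptor, then Stra6l (0.944) and Kdelr2 (0.937). Bhlhe40 was most like Socs3 (r = 0.946), a feedback inhibitor of cytokine signalling, then Tgif1 (0.932) and Pim1 (0.928). Bhlhe41 was most like Per2 (r = 0.931), then Tgif1 (0.871) and Adarb1 (0.866). Usp2 was most like Cyp2d22 (r = 0.836), Per3 (0.802) and Irf2bpl (0.8), so that Bhlhe41 and Usp2 each had a core clock gene among their 3. Ciart was most like Mtss1 (r = 0.813), Por (0.811) and Igbp1 (0.806), and Wee1 like Id3 (0.872), Sec24a (0.869) and Rnf19a (0.857). By Spearman rank the leading gene was the same for 5 of the 9: Tef, Nfil3, Usp2, Bhlhe41 and Wee1. By that rank Bhlhe41 kept Per2, the list of Usp2 held no core clock gene, and that of Bhlhe40 held Cry2 (0.858). Gne was then on neither the Tef nor the Dbp list.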

How the data were processed

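Bulk RNA from 24 livers was measured as gene counts, deposited by the authors as raw counts per gene with no normalization. Reads were aligned and counted with STAR (version not given) on build mm39, per the submitters' processing notes. Each file has an unstranded column and a column for each strand, and the unstranded counts gave the main results. Reads assigned to no gene (77.5% to 82.4% of reads, with ambiguous reads at 26.3% to 30.8%) were left out, and mitochondrial ribosomal RNA took 39.6% to 50.4% of the counts on genes.

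Genes were filtered with filterByExpr over 8 groups (13204 of 50657 kept), scaled by TMM and fitted with edgeR 4.0.16 (R 4.3.3, limma 3.58.1) in 1 quasi-likelihood model with robust dispersion, from which 17 comparisons were drawn and adjusted by Benjamini-Hochberg over all genes. The standard error is the log2 change over the square root of F. The procedure was tested on simulated data with the same spread for every gene. That test does not cover genes whose spread is wider. Alternatives were other scalings, filters, the strand column, DESeq2 1.42.0, other sets of samples and each library left out. The 9 genes are named in every comparison, listed pathway genes where called against 0 h, and like genes by rank of correlation; genes and lists were chosen with earlier results of these data known. Replicates of a group differed by more than sampling noise (chi-square per degree of freedom 2.18 to 19.7 over 24 pairs). Promoters are from RefSeq on GRCm38.p6, another build than that of the counts. Counting limits cover counting error only.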

Additional observations from a re-analysis of the deposited data

How the results depend on the processing

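No called change turned its direction under any alternative. Of 1525 values under settings other than leaving out 1 library, 1495 stayed on the same side of the threshold with the same direction, 16 lost a call and 14 gained one. Of 3672 values with 1 library left out, 3599 stayed, 65 lost a call and 8 gained one. Uncalled values took either sign in 83 cases, and 5 values could not be fitted. The number of the 9 genes called moved by over 1.5 times in 4 comparisons. It was 2 between 1 h and 3 h in KO livers with no filter on low counts, beside 0. It was 7 in WT at 1 h with only the groups compared in the model, beside 4, with Hlf (edgeR adjusted p = 0.041), Bhlhe41 (adjusted p = 0.029) and Bhlhe40 (adjusted p = 0.0366) added. It was 3 between 3 h and 12 h in WT without WT 3 h replicates 2 and 3, libraries doubted from earlier results of these data, beside 5. In KO at 1 h it ran from 5 to 8, beside 8, with 1 library left out, and was 5 without KO 0 h replicate 1, KO 0 h replicate 2 or KO 1 h replicate 2. The share of all genes called under the settings that moved these numbers was not set beside them. The numbers therefore do not tell the 9 genes from genes at large. In each case where an alternative moved a call, the cause was not tested. Replicate numbers were not taken to pair the mice. Over 84 pairs of libraries that share a number, their deviations correlated at -0.182 to 0.22 (median 0.00896), 10 of them over 0.1. Such correlations cannot exclude a batch shared by a number. With the replicate number as a block, Dbp was lost at 1 h in WT (-1.97, edgeR adjusted p = 0.0577, 3 of 9 genes then called) and KO livers (-2.34, adjusted p = 0.0501, 7 called), and no other call of the 9 genes changed. Dbp at 1 count per 0.124 to 0.349 CPM, Bhlhe41 and Wee1 are limited by depth. The gene-strand index was added after the data were seen.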
